A study of Mus musculus with 16 samples.

Results

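The CCAAT/enhancer-binding proteins (C/EBP) are a small family of leucine-zipper transcription factors, named here as the genes Cebpa, Cebpb, Cebpd, Cebpe and Cebpg. Their members were taken as all probe sets of the expression table whose annotation gives exactly 1 gene symbol that is 1 of these 5 names. The rule found 8 probe sets, among 28898 single-symbol probe sets and 45141 in all. Cebpa and Cebpd have 1 probe set each, Cebpb and Cebpg have 3 each, and Cebpe has 0. So 4 of the 5 genes were measured, and all 8 probe sets lay above the filter on low signal (3.67 on the log2 scale) that left 14410 of 17097 genes for testing. The family was chosen by name, but from earlier results on these 16 arrays, the log2 differences between the genotype groups. The differences of its own members are therefore given below as descriptions with intervals, and where members are counted among the genes called by limma the count supports nothing.

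The RNA came from the luminal epithelial cells of mouse mammary glands, collected by fluorescence-activated cell sorting. Mice of 9 weeks carried MMTV-Cre alone (the MMTV-Cre group) or MMTV-Cre with p38a-lox (the p38a-lox group). Mice of 6 weeks carried MMTV-Cre and MMTV-PyMT (the PyMT group) or these with p38a-lox (the p38a-lox PyMT group). Each group has 4 arrays, and every array of the 4 groups carries MMTV-Cre, a transgene that expresses Cre recombinase in mammary epithelium. p38a-lox is a floxed allele of Mapk14, the gene of the stress kinase p38 alpha, so that its loss is limited to cells in which Cre acted. MMTV-PyMT expresses the middle T antigen of polyoma virus in the same epithelium, where it gives rise to tumours. Because the groups with PyMT were also the younger ones, oncogene and age cannot be told apart in any comparison between groups with and without PyMT. The labels do not say that each array is a separate animal, so errors and p-values measure the spread between these samples only.

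C/EBP proteins bind DNA as dimers with one another and with related leucine-zipper proteins. Cebpa and Cebpb activate genes of differentiation and metabolism in liver, fat and blood cells, and Cebpb is also required in the mammary epithelium for ductal growth and for the development of milk-producing alveoli. Cebpb and Cebpd are induced by inflammatory cytokines through STAT and NF-kB signalling and activate acute-phase genes such as the serum amyloids, and Cebpd is known in the mammary gland from involution, the regression of the gland after lactation. Cebpg is a short family member without a conventional activation domain, which dimerises with the others and with Atf4. Cebpe acts in granulocytes. The proteins are also controlled after transcription, by phosphorylation and, for Cebpa and Cebpb, by the choice of start codon, which RNA levels do not show.

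The promoters of the 2 members with the widest differences below are printed first, with those of Saa1 and Saa2, acute-phase targets of the family whose windows hold its motif, which most of the targets described below do not. The sequences are the 200 bases before an annotated transcript start in RefSeq (GRCm38.p6), read 5′ to 3′ on the strand of the gene. Cebpb lies at chr2:167688915-167690432 on the plus strand, and its 200 bases at chr2:167688715-167688914. Cebpg lies at chr7:35046422-35056566 on the minus strand, with the 200 bases at chr7:35056567-35056766. The Saa1 stretch is chr7:46742981-46743180 on the minus strand, and the Saa2 stretch is chr7:46751633-46751832 on the plus strand. Capitals mark TGACG (the half-site of a cAMP response element) in Cebpb, CCAAT in Cebpg and TTGCNNAA (the C/EBP motif) in Saa1 and Saa2. A match on the opposite strand is in capitals as its reverse complement.
Cebpb: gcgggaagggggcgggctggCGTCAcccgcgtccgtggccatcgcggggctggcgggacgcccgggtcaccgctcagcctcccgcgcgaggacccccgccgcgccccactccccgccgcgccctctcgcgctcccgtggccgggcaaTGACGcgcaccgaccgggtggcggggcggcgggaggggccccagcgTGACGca
Cebpg: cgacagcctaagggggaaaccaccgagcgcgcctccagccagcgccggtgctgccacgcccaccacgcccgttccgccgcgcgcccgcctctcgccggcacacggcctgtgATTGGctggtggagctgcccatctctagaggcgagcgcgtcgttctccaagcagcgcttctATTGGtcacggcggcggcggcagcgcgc
Saa1: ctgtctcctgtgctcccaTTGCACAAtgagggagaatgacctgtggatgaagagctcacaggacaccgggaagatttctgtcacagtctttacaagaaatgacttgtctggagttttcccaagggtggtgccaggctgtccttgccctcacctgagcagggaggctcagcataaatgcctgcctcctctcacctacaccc
Saa2: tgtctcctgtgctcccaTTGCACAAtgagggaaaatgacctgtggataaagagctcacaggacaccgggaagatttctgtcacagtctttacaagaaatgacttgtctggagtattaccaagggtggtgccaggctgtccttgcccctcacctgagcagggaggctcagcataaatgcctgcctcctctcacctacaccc

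Motifs were searched on both strands of windows from 250 bases before to 50 bases after each start, in 32851 RefSeq promoters. TTGCNNAA was present in 10.8% of them, the full cAMP response element TGACGTCA in 1.79%, the STAT motif TTCNNNGAA in 8.3%, TGACG in 20.8%, CCAAT in 37.4% and TATAAA in 13.6%. TGACG lies within TGACGTCA, and the other motifs do not contain one another. The windows of Cebpa, Cebpb and Cebpg (1 promoter each) hold no match to TTGCNNAA, TGACGTCA or TTCNNNGAA, which says only that these letters are not in these windows. The Cebpb window holds TGACG 53 and 7 bases before the start and, on the opposite strand, 180 bases before it. The Cebpg window holds CCAAT on the opposite strand 89 and 28 bases before the start. The Cebpa window holds TATAAA 30 bases before the start, and the Cebpb window holds it 22 bases after the start. Of 10 windows of the 9 targets called below, 3 hold TTGCNNAA, which begins 182 bases before the start in Saa1 and 183 in Saa2 and is also in 1 of 2 windows of Cp. It was not found in the windows of Cxcl1, Cxcl2, S100a8, Wap, Lalba and Fasn. The half-site, CCAAT and TATAAA were added to the search after these promoters had been read.

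**Figure D1:**
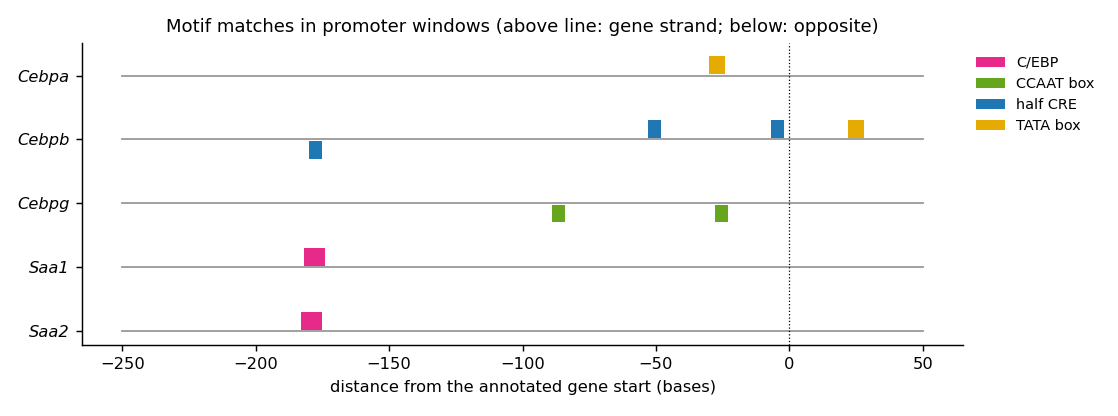
Positions of motif matches (coloured boxes) along the promoter windows of 3 measured C/EBP genes and of Saa1 and Saa2, with distance from the annotated start in bases on the x axis; boxes above a line are on the strand of the gene and boxes below it on the opposite strand. The C/EBP motif is seen 182 and 183 bases before the starts of Saa1 and Saa2 and in none of the 3 C/EBP windows.

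Array medians lay between 4.63 and 4.88 and correlations between arrays between 0.885 and 0.990, lowest for p38a-lox replicate 2 and PyMT replicate 4. The mean of 7 luminal markers lay between 10.25 and 10.93 in every array, from the keratin Krt8 (12.14 to 12.54) to the progenitor receptor Kit (4.73 to 8.03), and all 7 were above the filter. Array means of the hormone-sensing luminal markers Esr1, Pgr and Foxa1 varied more, from 5.26 to 9.23 in MMTV-Cre. They lay between 5.69 and 6.20 in p38a-lox, 5.20 and 6.90 in PyMT, and 5.24 and 7.86 in p38a-lox PyMT. The fitted probe set of the targeted gene was not lower in the groups labelled p38a-lox. Mapk14 (1416703_PM_at) read 7.11, 7.43, 5.56 and 6.02 in the arrays labelled MMTV-Cre and 6.79, 6.37, 7.91 and 8.16 in those labelled p38a-lox. It read 7.17, 7.12, 7.64 and 6.88 in PyMT and 7.09, 7.25, 7.34 and 7.24 in p38a-lox PyMT, a difference of 0.03 ± 0.416 (SE). The other Mapk14 probe sets differed by −0.38 ± 0.343 (1451927_PM_a_at) to −0.01 ± 0.220 (1459617_PM_at) between these groups. Between p38a-lox and MMTV-Cre they differed by 0.07 ± 0.149 (1442364_PM_at) to 0.41 ± 0.220 (1459617_PM_at). The sources used here do not say whether any of them reads the floxed part of the gene. The sample titles carry numbers, of unstated meaning, and these divide the arrays into 9 of a lower and 7 of a higher range. Without PyMT, the p38a-lox arrays of the lower range were lower in Mapk14 (−0.69), and those of the higher range were higher (2.24). Every direction drawn for p38a-lox, with or without PyMT, therefore refers to arrays as labelled. In bulk RNA, fewer cells of a type and less RNA per cell cannot be told apart.

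Cebpb, the member known for alveolar development, had its highest mean in PyMT in each of its probe sets. In the fitted probe set alone, the p38a-lox PyMT mean lay between that of PyMT and those of the groups without PyMT. In 1427843_PM_at the p38a-lox PyMT mean (6.03) lay below that of MMTV-Cre (6.13) and above that of p38a-lox (5.93). In 1427844_PM_a_at it was the lowest (6.27, beside 6.30 in MMTV-Cre and 6.31 in p38a-lox). The probe set of highest mean signal, 1418901_PM_at, which stands for the gene in the fit, read 8.65, 8.17, 9.36 and 8.15 in MMTV-Cre and 8.22, 8.36, 8.91 and 8.21 in p38a-lox. It read 10.36, 9.27, 9.99 and 10.93 in PyMT and 8.82, 9.73, 9.58 and 8.79 in p38a-lox PyMT. Of the 4 PyMT arrays, 3 lay above all MMTV-Cre arrays, and PyMT replicate 2 lay just below MMTV-Cre replicate 3. The group means were 10.14 ± 0.696 (SD, n = 4) in PyMT, 9.23 ± 0.493 in p38a-lox PyMT, 8.58 ± 0.566 in MMTV-Cre and 8.42 ± 0.330 in p38a-lox. In this order each group overlapped the next, and the step from MMTV-Cre to p38a-lox (0.16) was smaller than the pooled SD of these groups (0.463).

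PyMT arrays exceeded MMTV-Cre arrays in Cebpb by 1.56 ± 0.353 (SE) on the log2 scale, a 2.94-fold difference with a 95% interval of 1.75 to 4.95. Leaving out 1 array at a time gave differences from 1.29 (without PyMT replicate 4) to 1.84 (without PyMT replicate 2). The other 2 Cebpb probe sets showed smaller differences. The probe set 1427843_PM_at read 6.31, 6.16, 5.96 and 6.08 in MMTV-Cre and 6.62, 6.38, 6.22 and 6.46 in PyMT, a difference of 0.29 ± 0.146. The probe set 1427844_PM_a_at lay between 6.17 and 6.45 in MMTV-Cre and between 6.39 and 6.52 in PyMT, a difference of 0.16 ± 0.200. All 3 had a positive difference, and the mean of the 3 gave 0.67, well under the value of the fitted probe set alone. The sources used here do not say which of the probe sets reads the transcript best.

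Cebpg, the short dimer partner, differed the other way between the same groups. Its fitted probe set, 1451639_PM_at, read 9.74, 9.14, 10.28 and 10.15 in MMTV-Cre and 9.99, 9.996, 9.70 and 9.39 in p38a-lox. It read 7.93, 8.87, 8.11 and 7.97 in PyMT and 9.34, 8.58, 8.69 and 8.96 in p38a-lox PyMT. All 4 PyMT arrays lay below all 4 MMTV-Cre arrays, and all 4 p38a-lox PyMT arrays lay below all 4 p38a-lox arrays. The group means were, from the highest down, those of MMTV-Cre (9.83 ± 0.513), p38a-lox (9.77 ± 0.287), p38a-lox PyMT (8.89 ± 0.339) and PyMT (8.22 ± 0.441; SD, n = 4). In this order the first pair and the last pair overlapped, and the p38a-lox and p38a-lox PyMT groups between them did not.

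PyMT arrays were lower than MMTV-Cre arrays in Cebpg by a log2 difference of −1.61 ± 0.271 (SE), which is 3.05-fold lower, with a 95% interval of −2.19 to −1.03 on the log2 scale. Single arrays left out gave −1.84 to −1.46. The second probe set, 1425262_PM_at, read 8.98, 8.79, 9.19 and 9.21 in MMTV-Cre and 7.60, 9.21, 8.56 and 6.82 in PyMT, with a difference of −0.99 ± 0.438. Of the 4 PyMT arrays, 3 lay below all MMTV-Cre arrays, and PyMT replicate 2 lay at their upper end. The last, 1425261_PM_at, lay between 5.04 and 6.47 in MMTV-Cre and between 4.08 and 5.90 in PyMT, with a difference of −0.75 ± 0.433. The direction was shared by all 3 probe sets, whose mean differed by −1.12.

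Cebpd, the member induced by cytokines, did not separate the groups by PyMT. The probe set 1423233_PM_at read 9.94, 8.80, 9.61 and 9.41 in MMTV-Cre and 9.53, 8.82, 9.46 and 9.51 in p38a-lox. It read 10.17, 8.84, 8.89 and 9.97 in PyMT and 8.90, 9.15, 8.62 and 8.36 in p38a-lox PyMT. The PyMT group held both the highest array of all and arrays among the lower ones, and its mean (9.47 ± 0.701; SD, n = 4) differed from that of MMTV-Cre (9.44 ± 0.477) by 0.03 ± 0.322 (SE), with a 95% interval of −0.66 to 0.71. The lowest mean was that of p38a-lox PyMT (8.76 ± 0.342), and its arrays overlapped those of every other group.

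Cebpa, the differentiation factor of fat and liver, had the largest standard error of the 4. The probe set 1418982_PM_at read 9.86, 8.13, 7.44 and 7.76 in MMTV-Cre and 8.06, 7.16, 8.65 and 8.84 in p38a-lox. It read 8.33, 7.06, 8.10 and 7.37 in PyMT and 7.44, 7.73, 7.76 and 6.82 in p38a-lox PyMT. All neighbouring groups overlapped in the order MMTV-Cre (8.30 ± 1.08; SD, n = 4), p38a-lox (8.18 ± 0.756), PyMT (7.71 ± 0.597) and p38a-lox PyMT (7.44 ± 0.437). The difference of PyMT from MMTV-Cre was −0.58 ± 0.488 (SE), and it was −0.06 without MMTV-Cre replicate 1, the highest array.

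**Figure D2:**
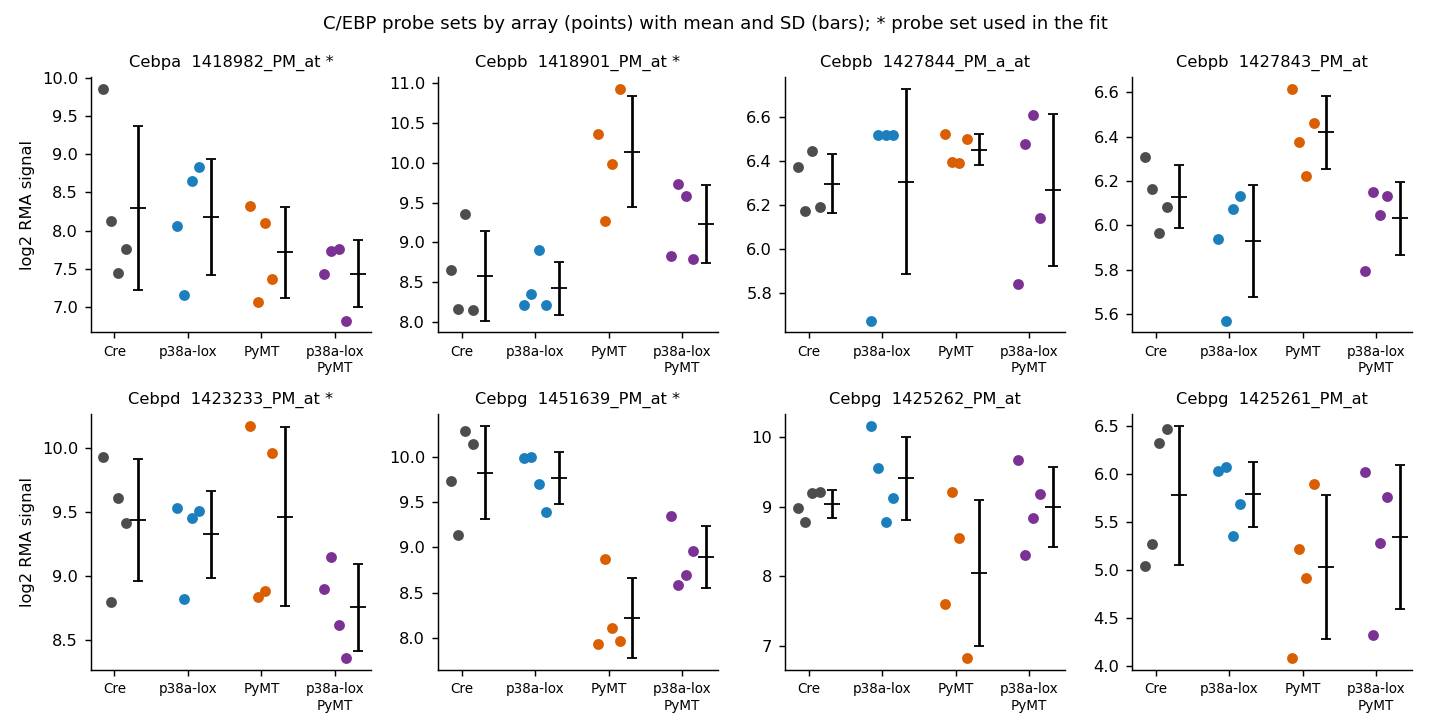
Log2 RMA signal (y axis) of the 8 C/EBP probe sets in each array (points), with the mean and SD of the 4 arrays of a group (bars), by genotype group (x axis); an asterisk marks the probe set used in the fit. Cebpb 1418901_PM_at is highest in PyMT (mean 10.14) and Cebpg 1451639_PM_at lowest there (mean 8.22), while Cebpa and Cebpd overlap between groups.

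Over the 14410 tested genes, limma called 182 genes between PyMT and MMTV-Cre at an adjusted p under 0.05, or 1.26%, with 127 higher (0.881%) and 55 lower (0.382%). The members called were 2 of 4, Cebpb higher and Cebpg lower, and since the family was chosen with these results in view nothing is read from that share. The count also depends on the settings. Over 25 alternative analyses Cebpg was among the called genes in 23, lacking with the mean of probe sets and with only these groups fitted, and Cebpb in 7. Single arrays whose omission took Cebpb out were MMTV-Cre replicates 1, 2 and 4, PyMT replicates 1, 3 and 4, p38a-lox PyMT replicates 3 and 4 and each p38a-lox array. Arrays of the groups did not overlap for 1022 genes (7.09%), and for 1 member, Cebpg. The 5th and 95th percentiles of the difference over all tested genes were −0.71 and 0.79. The fitted Cebpb and Cebpg values lie outside this range and those of Cebpa and Cebpd inside it. The other Cebpb probe sets (0.29 and 0.16) also lie inside it. Since the family was chosen from these differences, nothing is read from these positions either.

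The same comparison among arrays with p38a-lox gave smaller differences for both genes. In the fitted probe sets, p38a-lox PyMT arrays differed from p38a-lox arrays by 0.81 ± 0.353 in Cebpb (95% interval 0.05 to 1.56) and by −0.88 ± 0.271 in Cebpg (−1.45 to −0.30). The other Cebpb probe sets gave 0.10 ± 0.146 (1427843_PM_at) and −0.04 ± 0.200 (1427844_PM_a_at). The other Cebpg probe sets gave −0.41 ± 0.438 (1425262_PM_at) and −0.44 ± 0.433 (1425261_PM_at), with overlapping arrays. Here 0 of 4 members were called beside 112 genes in all (0.777%, with 79 or 0.548% higher and 33 or 0.229% lower). Arrays did not overlap in the fitted probe set of 1 member, Cebpg, and for 8.16% of genes. Cebpa differed by −0.74 ± 0.488 and Cebpd by −0.57 ± 0.322. The interaction, the PyMT difference with p38a-lox minus that without it, was −0.75 ± 0.499 for Cebpb (−1.81 to 0.31) and 0.73 ± 0.383 for Cebpg (−0.08 to 1.55). It was −0.60 ± 0.455 for Cebpd and −0.16 ± 0.690 for Cebpa. For the interaction limma called 0 genes (0% of those tested, with 406 at an unadjusted p under 0.05). The differences between groups with and without PyMT, which are also differences in age, were thus not shown to vary with p38a-lox for any member.

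**Figure D3:**
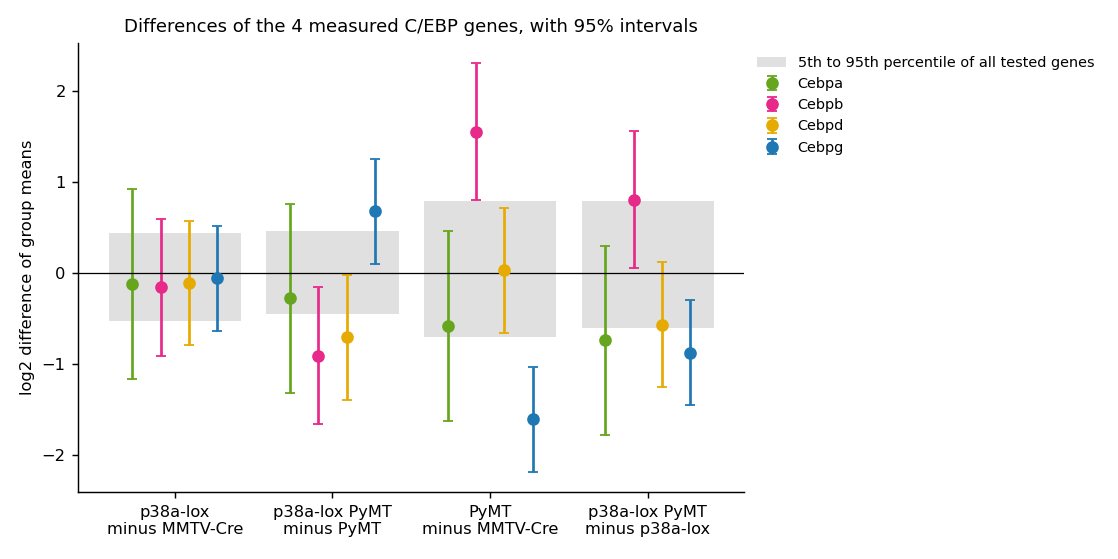
Log2 differences between group means (y axis) of the 4 measured C/EBP genes in 4 comparisons (x axis), with 95% intervals from the limma fit; grey bands span the 5th to 95th percentile of all tested genes. In the fitted probe sets, Cebpb (1.56) and Cebpg (−1.61) lie outside the band in opposite directions in the comparison of PyMT with MMTV-Cre. The family was chosen from such differences, so these positions are descriptions only.

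The comparison of p38a-lox PyMT with PyMT arrays is meant to read the floxed p38 alpha allele in cells with the oncogene. In it the fitted Mapk14 probe set differed by 0.03 ± 0.416. Cebpb and Cebpd were lower and Cebpg higher in the means of the arrays labelled p38a-lox PyMT. The differences were −0.91 ± 0.353 for Cebpb (95% interval −1.66 to −0.16), −0.71 ± 0.322 for Cebpd (−1.40 to −0.02), 0.68 ± 0.271 for Cebpg (0.10 to 1.25) and −0.28 ± 0.488 for Cebpa (−1.32 to 0.76). limma called 0 members and 0 genes (0%), with 516 genes at an unadjusted p under 0.05. The comparison shares the PyMT arrays with that of PyMT and MMTV-Cre, so opposite signs in these are not separate observations. The arrays of the groups overlapped in the fitted probe sets of all 4 members, which was so for all but 2.55% of genes. Among the probe sets not fitted, they did not overlap in Cebpb 1427843_PM_at, which read 5.79, 6.15, 6.05 and 6.13 in p38a-lox PyMT, a difference of −0.39 ± 0.146. They overlapped in Cebpb 1427844_PM_a_at (−0.19 ± 0.200). So they did in Cebpg 1425262_PM_at (0.95 ± 0.438) and 1425261_PM_at (0.32 ± 0.433). The share of 2.55% is over fitted probe sets and does not apply to these. Leaving out single arrays gave −1.20 to −0.64 for Cebpb, −0.92 to −0.47 for Cebpd and 0.53 to 0.89 for Cebpg.

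Between the arrays labelled p38a-lox and MMTV-Cre, the fitted probe sets of all 4 members differed by less than their errors. Of the other probe sets, Cebpb 1427843_PM_at differed by more than its error (−0.20 ± 0.146) and 1427844_PM_a_at by less (0.01 ± 0.200). Those of Cebpg differed by 0.37 ± 0.438 (1425262_PM_at) and 0.01 ± 0.433 (1425261_PM_at). In the fitted probe sets the differences were −0.16 ± 0.353 for Cebpb, −0.06 ± 0.271 for Cebpg, −0.11 ± 0.322 for Cebpd and −0.12 ± 0.488 for Cebpa. With 95% intervals of −0.91 to 0.59 for Cebpb and −1.16 to 0.92 for Cebpa, differences of up to those sizes are not excluded by these arrays. limma called 0 members and 0 genes (0%), with 690 genes at an unadjusted p under 0.05, and the arrays overlapped for all 4 members and for all but 2.1% of genes.

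The title-number ranges divided these values for Cebpa and Cebpg. In the lower range, with 2 arrays against 2, Cebpa was lower in p38a-lox than in MMTV-Cre (−1.39), and in the higher range, also 2 against 2, it was higher (1.14). Cebpg did the reverse, with 0.55 in the lower range and −0.67 in the higher. Cebpb (−0.12 and −0.20) and Cebpd (−0.19 and −0.03) kept their sign. So the near-zero differences of Cebpa and Cebpg are means of opposite values, in ranges between which the Mapk14 difference also turned, and the part of either in the result was not tested. The PyMT differences held in both ranges for Cebpb (1.78 and 1.23) and Cebpg (−1.19 and −2.11), although the higher range has 1 PyMT array. They turned for Cebpd (0.29 and −0.62) and Cebpa (−1.41 and 0.49). Of p38a-lox PyMT against PyMT, the differences were −0.91 and −0.80 for Cebpb, 0.71 and 0.72 for Cebpg and −0.64 and −0.40 for Cebpd.

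**Figure D4:**
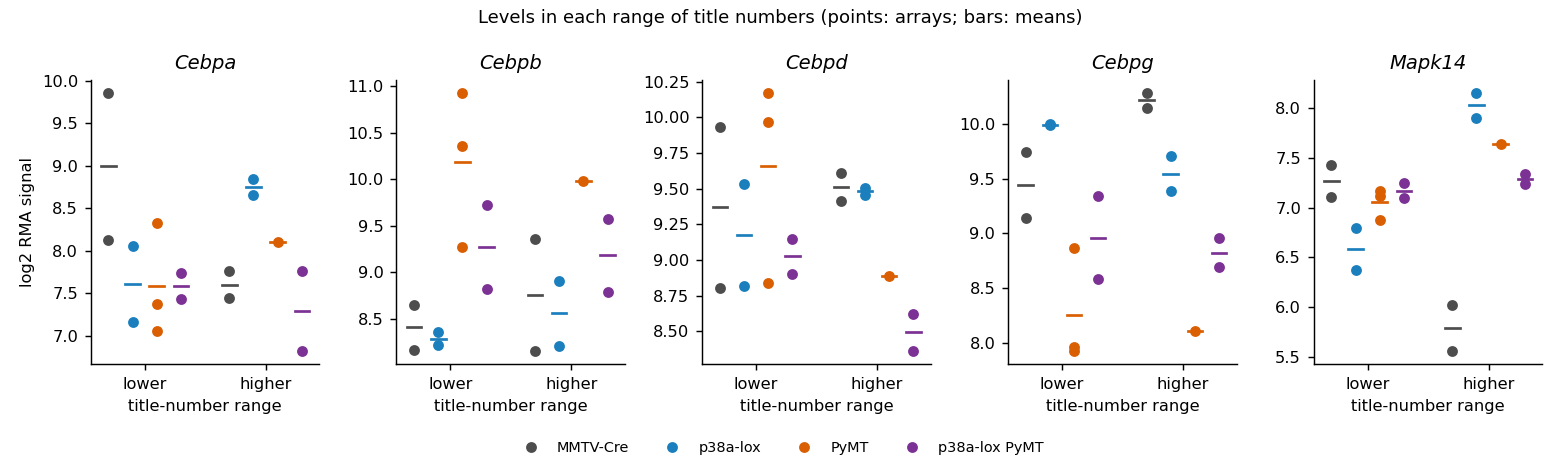
Log2 RMA signal (y axis) of the 4 measured C/EBP genes and Mapk14 in arrays of the lower and higher range of title numbers (x axis); points are arrays coloured by group and bars are means. Cebpa and Mapk14 are lower in p38a-lox than in MMTV-Cre in the lower range and higher in the higher range, and PyMT stays above MMTV-Cre in Cebpb and below it in Cebpg in both.

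Within groups, members varied together only in part. Over the 16 arrays, deviations from the group means correlated at r = 0.61 between Cebpb and Cebpd, 0.50 between Cebpa and Cebpd and −0.51 between Cebpa and Cebpg. Among the absolute r of the first gene with all tested genes, these stood at percentiles 93, 80 and 82. All are descriptions across arrays that share their normalization. The other pairs lay between −0.29 and 0.17. Thus Cebpb and Cebpg, which differed in opposite directions between PyMT and MMTV-Cre, were only weakly opposed within groups (r = −0.29). The genes whose deviations were most like those of a member, among 13320 with an established name, were named by rank. For Cebpg they were Klf5, a zinc-finger transcription factor of epithelia (r = 0.96), Zfp131 (0.93) and the isoleucyl-tRNA synthetase Iars (0.92). For Cebpb they were Ttc7 (0.88), the matrix protein Thbs4 (0.87) and Lgi1 (0.86). For Cebpd they were the cytokine Il34 (0.93), the collagen chain Col19a1 (0.84) and the keratin Krt25 (0.84), and for Cebpa the small GTPase Rab35 (0.92), Fbxo28 (0.89) and Zfp28 (0.88).

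Of genes known to act with or upstream of the family, 0 passed the test in any of the 5 comparisons. Between PyMT and MMTV-Cre, the 11 dimer partners and relatives had 5 positive and 6 negative estimates with a median of −0.03, beside 0.03 over all tested genes. Their smallest p-values belonged to Atf4, the stress-response factor that pairs with Cebpg (−0.66 ± 0.249, limma adjusted p = 0.234), and Batf (−0.71 ± 0.319, adjusted p = 0.341). Of the cytokine, hormone and STAT inputs 16 were tested, with 6 positive and 10 negative estimates and a median of −0.38. They include Stat5b, a mediator of prolactin signalling (−0.77 ± 0.263, adjusted p = 0.182), and Creb1, which binds cAMP response elements (−0.83 ± 0.290, adjusted p = 0.193). Of kinases, stability factors and cofactors 17 were tested, with 8 positive and 9 negative estimates and a median of −0.10. They include the SUMO ligase Pias1 (−1.17 ± 0.333, adjusted p = 0.0999) and the acetyltransferase Crebbp (−1.35 ± 0.420, adjusted p = 0.136).

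In the comparisons of p38a-lox without and with PyMT these lists also held 0 called genes. Without PyMT, Nfil3, a repressor of the same protein class, differed by −1.18 ± 0.505, Atf4 by −0.58 ± 0.249, the cytokine-activated factor Stat3 by 0.39 ± 0.143 and the chaperone Calr, which binds Cebpa and Cebpb mRNA, by −0.52 ± 0.156. Of the 17 kinases and cofactors, 15 had a negative estimate there, with a median of −0.31 beside 0.00 over all genes. With PyMT, the cell cycle kinase Cdk2 differed by −0.80 ± 0.245 and the glucocorticoid receptor Nr3c1 by 0.92 ± 0.523.

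Acute-phase and inflammatory genes known as C/EBP targets were called higher in PyMT than in MMTV-Cre arrays for 6 of 15 tested and lower for 0. Of all genes 0.881% were called higher. The median difference of the list was 1.66 against 0.03 over all tested genes. The lists were chosen with earlier results of these data known, so nothing is read from these shares or from those of the lists below. Saa1, a serum amyloid, lay between 4.66 and 6.44 in MMTV-Cre and between 10.20 and 11.19 in PyMT, a difference of 5.14 ± 0.714 (limma adjusted p = 0.00395). S100a8, a calcium-binding protein of neutrophils and inflamed epithelia, lay between 4.21 and 5.54 and between 7.44 and 10.48 (4.16 ± 0.597, adjusted p = 0.0050). The chemokines Cxcl1 (3.42 ± 0.679, adjusted p = 0.0260) and Cxcl2 (3.85 ± 0.795, adjusted p = 0.0304) rose as well. So did Saa2 (3.83 ± 0.828, adjusted p = 0.0365) and the ferroxidase ceruloplasmin Cp (1.66 ± 0.374, adjusted p = 0.0444). Saa1 and Saa2 are near-identical paralogs, so the division of signal between them is uncertain. Haptoglobin Hp, a classical target, had a difference of −1.79 ± 0.661 that did not pass.

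Among the 10 tested milk and mammary targets 2 rose and 0 fell, beside 0.881% and 0.382% of all genes, with 8 positive and 2 negative estimates and a median of 0.62. The whey acidic protein Wap lay between 6.00 and 6.42 in MMTV-Cre and between 8.49 and 10.64 in PyMT (3.35 ± 0.409, adjusted p = 0.00203), and the lactose synthase subunit Lalba differed by 3.21 ± 0.706 (adjusted p = 0.0398). Of 9 fat and glucose genes, with 7 positive and 2 negative estimates and a median of 0.15, the fatty acid synthase Fasn alone rose (1.84 ± 0.422, limma adjusted p = 0.0484). Of 7 granulocyte targets 0 passed, with Prtn3 at 0.95 ± 0.280 (limma adjusted p = 0.116). The 9 targets were named by this same call, so their direction in each title range is no further evidence. In the comparison of p38a-lox PyMT with p38a-lox, Saa1 was the 1 target called (4.08 ± 0.714, limma adjusted p = 0.0173), beside 0.548% of all genes called higher. This call held in 21 of 25 alternatives (adjusted p up to 0.0692) and was lost with only these groups fitted and without p38a-lox PyMT replicate 2, 3 or 4. In the same comparison Wap differed by 1.73 ± 0.409 (adjusted p = 0.0635). Between p38a-lox PyMT and PyMT 0 were called, with estimates of −1.59 ± 0.409 for Wap and −2.03 ± 0.597 for S100a8, each at limma adjusted p = 0.999.

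The calls for Saa1, S100a8 and Wap between PyMT and MMTV-Cre held in all 25 alternative analyses (largest adjusted p in limma 0.0224, 0.0401 and 0.0393). Those for Cxcl1 and Cxcl2 held in 19 and 18 (largest adjusted p 0.0962 and 0.114) and were lost without MMTV-Cre replicate 1, 3 or 4 or PyMT replicate 1 or 4. Those for Saa2, Lalba, Cp and Fasn held in 16, 13, 7 and 7, with a largest adjusted p of 0.12, 0.132, 0.362 and 0.156, and each was lost without MMTV-Cre replicate 1 or 4 or PyMT replicate 1, 3 or 4, among other arrays.

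**Figure D5:**
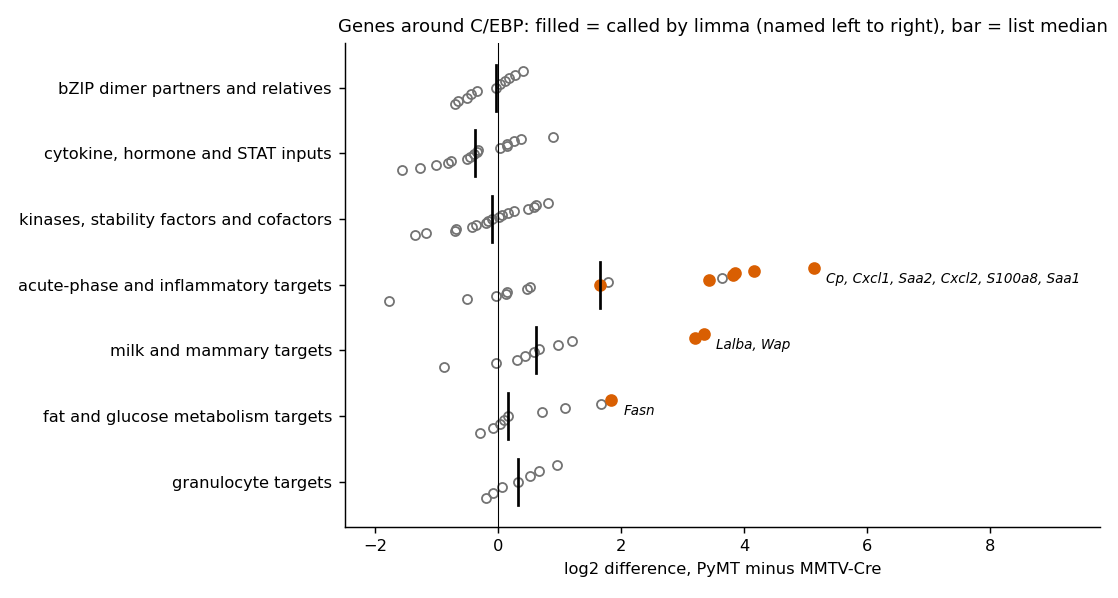
Log2 difference of PyMT minus MMTV-Cre (x axis) for tested genes of 7 lists around the C/EBP family (y axis); each point is a gene, filled points passed limma at an adjusted p under 0.05 and are named from left to right, and the vertical bar in each list is its median. Filled points stand in the 3 lists of acute-phase (median 1.66), milk and fat targets, and in none of the lists of partners, inputs, cofactors and granulocyte targets.

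Within groups, Cebpb deviations ran with those of Fasn (r = 0.77), Wap (0.66) and Lalba (0.55) but not of Saa1 (−0.21), over 16 arrays. Cebpd ran with Wap (0.67) and Cxcl2 (0.47), and Cebpg against Fasn (−0.68). Cebpa ran against Cp (−0.51), Saa1 (−0.49) and Saa2 (−0.47). Apart from Cebpb with Saa1, these pairs were picked for the largest absolute r among the 4 members and 9 called targets. They were not ranked beside all tested genes. The values are descriptions over arrays that were normalized together, and the marker levels given next varied among arrays of a group too.

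Levels of some markers of other cells differed between the same groups. The 5 basal epithelial markers had array means of 6.12 to 8.38 in MMTV-Cre and 8.03 to 9.05 in PyMT (7.08 ± 0.992 and 8.63 ± 0.497; SD, n = 4), and 1 of 5, Trp63, was called by limma. Those of p38a-lox (6.92 ± 1.06) and p38a-lox PyMT (8.74 ± 0.460) lay close to those of MMTV-Cre and PyMT, respectively. Within this list the means of Krt5, Krt14, Acta2 and Trp63 were higher in PyMT than in MMTV-Cre. Myh11 went the other way, with 6.25 ± 0.925 in MMTV-Cre and 5.86 ± 0.718 in PyMT. The neutrophil list had means of 4.45 ± 0.163 in MMTV-Cre and 5.32 ± 0.387 in PyMT, and this gap was that of S100a8 (4.89 ± 0.605 and 9.05 ± 1.34), the 1 of 3 tested called and also counted among the C/EBP targets. The other neutrophil genes had like means in both groups, with S100a9 at 5.82 and 5.94 and Camp at 4.56 and 4.62, and Csf3r and Ngp lay below the filter. Macrophage markers had means of 4.70 ± 0.236 and 4.99 ± 0.046, with 0 of 5 called between these groups. Between p38a-lox PyMT and p38a-lox 1 of 5 was called, Cd68, with means of 9.05 ± 0.303 and 6.31 ± 0.901. The median difference of the 5 genes was 0.004 there. Of the fat-cell markers Adipoq lay below the filter, and Fabp4, the 1 tested, was not called. It differed by 1.67 ± 1.13 between PyMT and MMTV-Cre and by −1.27 ± 1.13 between p38a-lox PyMT and PyMT, the signs that Cebpb and Fasn had in these comparisons. The leukocyte marker Ptprc lay below the filter. The part of basal cells, of macrophages, of fat cells and of hormone-sensing luminal cells in the Cebpb, Cebpg and target values was not tested.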

How the data were processed

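Expression was measured on 16 Affymetrix mouse arrays. The deposited values are log2 signals made with RMA, per the submitters' processing notes, whose version and settings are not stated there. RMA background-corrects, quantile-normalizes and summarises probes, so total RNA differences and transcript lengths cannot be read from it, and levels were not compared between genes. The number of arrays limits the precision. Of 29449 annotated probe sets, 28898 had 1 symbol, and 28689 matched RefSeq (GRCm38.p6) by Entrez ID, changing 0 symbols. Within a gene, the probe set of highest mean stood for it, a choice that sets the size of the Cebpb difference, and genes under the 25th percentile were left out. limma 3.58.1 in R 4.3.3 fitted 1 linear model to the 4 groups (12 residual and 2.83 prior degrees of freedom) with two-sided moderated tests, Benjamini-Hochberg adjusted over all tested genes. The procedure was tested on simulated data with known differences and independent noise for each gene. Such data lack the title ranges and the arrays of low correlation seen here, so nothing about the calls above is read from them. The members and lists were chosen with earlier results of these data known. Named genes are the members, Mapk14, up to 4 called genes of smallest p per list and comparison (2 where none was called), and the 3 genes most correlated with each member; Saa2, Cp and Hp were added after their values were seen. Alternatives were other filters, probe-set rules, normalizations, eBayes options, fits of only the groups compared, a block for title ranges and leaving out arrays.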

Additional observations from a re-analysis of the deposited data

Results flagged for a closer look

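Samples that stood far from the other 3 of their group were found in 2 of 68 groups of 4 examined, and chance gives about 1 in 20. In the Cebpb probe set 1427844_PM_a_at, p38a-lox replicate 1 read 5.67, where the nearest of the others read 6.52. In Cebpd, p38a-lox replicate 2 read 8.82, and the nearest read 9.46; this array is also 1 of the 2 with the lowest correlation to the others.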

How the results depend on the processing

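No paired analysis was possible because the labels give no pairing of arrays between groups. The labels carry no replicate numbers, and those used here follow the order of the samples within each group. The C/EBP differences kept their direction wherever they were past the threshold: 2 of 196 values moved by more than the spread between replicates under other settings, and 0 of 320 did when single arrays were left out. With the mean of probe sets, Cebpb differed by 0.67 and Cebpg by −1.12 between PyMT and MMTV-Cre. Counts of called genes depended more on the settings. With only the groups compared, 55 genes were called between PyMT and MMTV-Cre (182 in the main analysis), of the listed genes 5 (9), and 169 between p38a-lox PyMT and p38a-lox (112). Without the 2 arrays of lowest correlation, an alternative chosen after seeing the data, these were 111 genes and 3 listed genes between PyMT and MMTV-Cre. Between p38a-lox PyMT and p38a-lox the listed genes called (1) were 3 with the median filter or without those 2 arrays, and 2 with the mean of probe sets, with all probe sets or with trend and robust options. Without a filter 1 gene was called between p38a-lox and MMTV-Cre (0). Leaving out single arrays gave 49 to 443 genes between PyMT and MMTV-Cre, with 3 to 12 listed genes; 26 to 230 between p38a-lox PyMT and p38a-lox, with 0 to 4 listed genes; 0 to 3 between p38a-lox PyMT and PyMT; and 0 to 4 between p38a-lox and MMTV-Cre. The cause was not tested. With 4 arrays a group, 95% intervals of a member's difference reached from −0.91 to 0.59 for Cebpb between p38a-lox and MMTV-Cre, so smaller changes could not be seen.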
